A study of Mus musculus with 11 samples.

Results

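The 10 genes described here encode matrix proteoglycans and their close relatives, and all 10 were found by symbol among the 23507 gene rows of the count table. Of these, 8 belong to the small leucine-rich family (Dcn, Lum, Bgn, Fmod, Ogn, Prelp, Aspn and Podn) and 2 encode large proteoglycans (Vcan and Hspg2). Their levels were compared between adipose stem cells (ASC), their subtypes, mural cells and endothelial cells (EC), and between animals.

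The cells were the stromal vascular fraction, the part of the tissue other than adipocytes, of perigonadal white adipose tissue (pgWAT, the fat beside the gonads) of adult mice. The labels name no treatment, and all animals, male and female, had the C57BL6/J genotype and carried the reporter Tg(Pdgfrb-eGFP), in which the Pdgfrb promoter drives a green fluorescent protein, so that mural cells and ASC could be sorted by its signal. The 3261 single cells came from 11 plates and 7 mouse ids, with 1177 cells of 3 male ids (mice 1, 4 and 8) and 2084 cells of 4 female ids (mice 2, 3, 5 and 6/7), where id 6/7 pools 2 animals sorted onto the same plates. Plates were filled by sorting on the reporter, on CD31 (an EC surface protein) or on DPP4 (found on the surface of some ASC), each mouse had its own plates, and plate and animal cannot be told apart.

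Libraries were made with Smart-seq2, which reads whole transcripts and carries no molecular identifiers, and held 149931 to 3548334 reads per cell with a median of 629323. Levels are given as CPM, the reads of a gene in all cells of a class in 1 mouse, scaled to 1000000 protein-coding reads of those cells, because the median share of ribosomal RNA reads in ASC ran from 24.3% to 53.4% between mice. Cells were grouped into classes by clusters made without the 10 genes and named "X-like" from markers that include none of them. There were 2251 ASC-like cells, 561 blood EC-like cells, 60 pericyte-like and 41 vascular smooth muscle cell (VSMC)-like cells, together called mural-like, and 22 lymphatic EC-like cells, while 170 cells stayed unnamed. All 7 ASC markers were detected in ASC-like cells and all 6 blood EC markers in blood EC-like cells. In pericyte-like cells the blood EC markers summed to 6531 CPM, close to the 6546 CPM of the pericyte markers themselves. In blood EC-like cells 8 of 10 adipocyte markers had a read in at least 25% of cells, against 3 of 10 in ASC-like cells. The part of either list in the levels below was not tested.

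Small leucine-rich proteoglycans have a core of short leucine-rich repeats, carry chondroitin, dermatan or keratan sulfate chains or none, and bind collagen fibrils, whose width and spacing they set. Several also bind growth factors of the TGF-beta family. Versican (Vcan) carries many chondroitin sulfate chains, binds hyaluronan and gives a loose, hydrated matrix, whereas perlecan (Hspg2) carries heparan sulfate and is built into basement membranes, such as those that surround vessels and adipocytes. In adipose tissue the fibroblast-like ASC are the main known source of interstitial matrix, and EC and mural cells share a basement membrane.

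The genes lie on 4 autosomes and the X chromosome (mm10). Dcn (chr10:97479609-97518143) and Lum (chr10:97565128-97572703) are neighbours 47.0 kb apart on the plus strand. Ogn (chr13:49608046-49624501) and Aspn (chr13:49544443-49567565) lie 40.5 kb apart on the plus strand, and Prelp (chr1:133910304-133921414, minus strand) lies 116 kb from Fmod (chr1:134037254-134048277, plus strand). Bgn (chrX:73483602-73495933) and Hspg2 (chr4:137468769-137570630) are on the plus strand, and Podn (chr4:108014791-108096445) and Vcan (chr13:89655312-89742509) on the minus strand. An exon of Cenpp overlaps Aspn on the opposite strand and one of Gm15851 overlaps Prelp. The counting was not stated to use strand, so reads in these overlaps cannot be assigned with certainty, but Cenpp stood at no more than 0.82 CPM and Gm15851 at no more than 0.36 CPM in any of the 4 classes ASC-like, blood EC-like, mural-like and lymphatic EC-like.

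Promoters of 8 of the 10 genes, 250 bases before to 50 after the start, were read from RefSeq (GRCm38.p6), and Podn had 2. The 4 printed here are of perlecan, the 1 gene of the 10 that was not called between ASC and EC, of Aspn, the gene with its highest level in mural cells, and of the chromosome 1 neighbours Prelp and Fmod, whose levels did not overlap between the sexes. Capitals mark 2 motifs on either strand. The GC box, GGGCGG, stands in 35.7% of all 32851 promoters of this length. The share for the TATA box, spelled TATAAA, is 13.6%.
Hspg2, chr4:137468553-137468852, plus strand: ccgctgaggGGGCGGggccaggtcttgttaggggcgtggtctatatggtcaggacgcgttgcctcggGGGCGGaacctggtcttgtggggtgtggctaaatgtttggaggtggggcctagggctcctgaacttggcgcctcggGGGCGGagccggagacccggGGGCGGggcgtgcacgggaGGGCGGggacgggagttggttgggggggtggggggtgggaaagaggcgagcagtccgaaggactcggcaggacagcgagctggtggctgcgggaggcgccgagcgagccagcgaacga
Aspn, chr13:49544193-49544492, plus strand: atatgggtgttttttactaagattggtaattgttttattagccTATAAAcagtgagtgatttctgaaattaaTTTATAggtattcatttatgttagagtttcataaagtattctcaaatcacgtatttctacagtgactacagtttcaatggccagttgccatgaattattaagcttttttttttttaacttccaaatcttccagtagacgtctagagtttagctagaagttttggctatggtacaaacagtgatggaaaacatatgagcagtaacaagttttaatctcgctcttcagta
Prelp, chr1:133921352-133921651, minus strand: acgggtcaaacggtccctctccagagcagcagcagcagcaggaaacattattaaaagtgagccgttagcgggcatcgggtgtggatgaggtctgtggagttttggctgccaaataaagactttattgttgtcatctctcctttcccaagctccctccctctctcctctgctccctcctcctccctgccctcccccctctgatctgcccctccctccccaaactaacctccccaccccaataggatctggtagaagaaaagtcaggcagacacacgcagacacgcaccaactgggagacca
Fmod, chr1:134037004-134037303, plus strand: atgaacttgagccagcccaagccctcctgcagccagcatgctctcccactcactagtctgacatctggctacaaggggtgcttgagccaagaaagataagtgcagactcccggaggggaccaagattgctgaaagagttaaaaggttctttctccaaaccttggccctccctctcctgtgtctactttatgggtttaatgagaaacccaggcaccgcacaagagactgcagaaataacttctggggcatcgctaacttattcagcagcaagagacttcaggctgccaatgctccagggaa
The Hspg2 window held 5 GC boxes and was 70.3% G or C, above the median of 52.7% and the upper quartile of 61.7% over all promoters. The Aspn window was 31.0% G or C, below the lower quartile of 45.7%, and held TATA box letters at 207 to 202 and at 178 to 173 bases before the start. The Prelp and Fmod windows, at 55.3% and 51.0% G or C, held neither motif. A match of letters is a description of the window and not a binding site.

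ASC-like cells expressed all 10 genes. Decorin (Dcn), the dermatan sulfate proteoglycan that coats collagen fibrils, had the highest level, with a lowest, median and highest value of 11774, 14907 and 26567 CPM over the 7 mice. Together the 10 genes took 2.16% to 3.81% of the protein-coding reads of ASC-like cells, and Dcn alone 1.18% to 2.66%. Per kilobase of the principal transcript, mean levels were 9808 CPM for Dcn, 1603 CPM for biglycan (Bgn, the closest relative of decorin), 1270 CPM for lumican (Lum, a keratan sulfate proteoglycan), 584 CPM for mimecan (Ogn) and 332 CPM for Prelp, a collagen and heparan sulfate binding protein.

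Below these stood podocan (Podn) at 129 CPM per kilobase, perlecan at 63.8, fibromodulin (Fmod, which shares a collagen site with lumican) at 53.1 and asporin (Aspn, a relative of decorin that lacks its glycosaminoglycan chain) at 40.9. The lowest mouse for Dcn lay above the highest mouse for every other gene on this scale. All other neighbours in this order had overlapping ranges over the 7 mice. Versican was not placed in this order, because its principal transcript is short in comparison with the exons of all its transcripts.

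The spread between mice differed by gene. Fmod ran from 10.6 to 392 CPM with a median of 136 CPM, and Hspg2 from 312 to 2738 CPM with a median of 504.5 CPM. Vcan ran from 59.5 to 610 CPM with a median of 113 CPM, the highest value being that of male mouse 1. Dcn had the smallest spread of the 10 relative to its mean, with an SD of 5287 CPM around 17242 CPM.

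**Figure D1:**
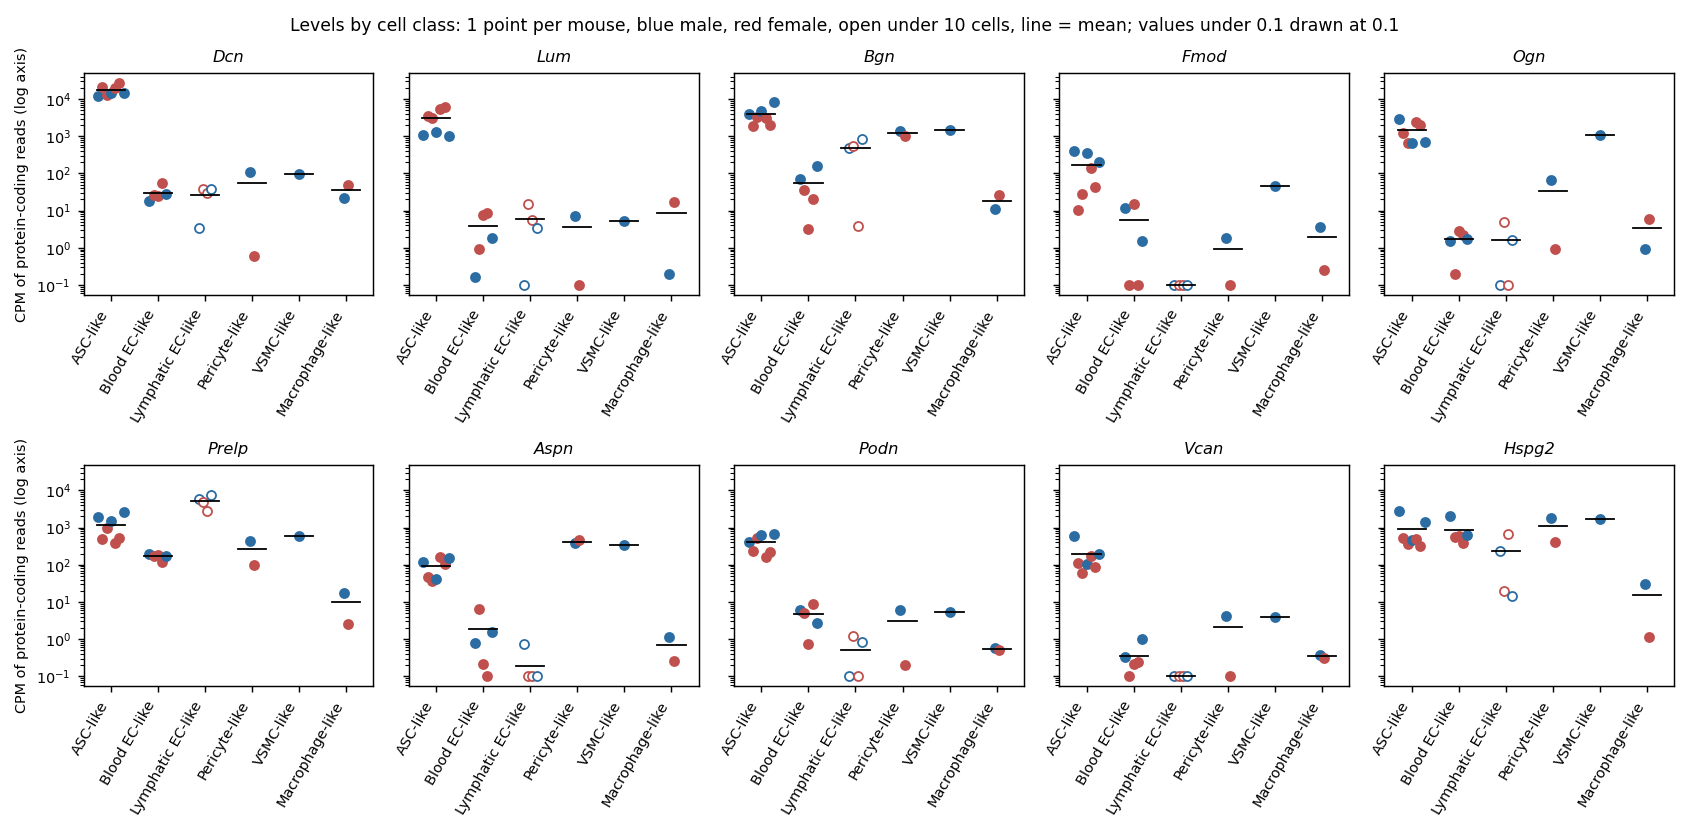
Levels in CPM of protein-coding reads (log axis) of the 10 genes by cell class, 1 point per mouse, with a line at the mean and open points for classes of under 10 cells in a mouse; values under 0.1 are drawn at 0.1. ASC-like levels lie above blood EC-like levels for every gene but Hspg2 and Fmod, Aspn is highest in mural-like cells, and Prelp is highest in the few lymphatic EC-like cells (2874 to 7507 CPM).

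The comparison with blood EC covers the endothelium of vessels alone, and mural cells are compared further below. In the 5 mice with at least 10 blood EC-like cells, 9 of the 10 genes were called higher in ASC-like cells, where 13.9% of the 12207 genes tested were called higher and 8.77% lower. A call needed an adjusted p below 0.05 in the quasi-likelihood test of edgeR and a fold change above 2.6. The median log2 fold change of the 10 genes was 7.11, against 0.20 for all genes tested. In bulk sums such as these, fewer cells with a transcript and less transcript per cell cannot be told apart, which is why shares of cells are given below. Class was also tied in part to plate and sort. Most EC-like and ASC-like cells of mice 1, 2 and 6/7 lay on different plates, whereas those of mice 5 and 8 shared a plate. The part of plate and sort in the differences was not tested.

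Lum was 10.61 ± 0.78 (SE, adjusted p = 9.63e-05) higher in ASC-like cells on the log2 scale and stood at 0.16 to 8.8 CPM in blood EC-like cells. Ogn was higher by 10.49 ± 0.71 and stood at no more than 2.8 CPM in EC-like cells. Vcan was higher by 9.98 ± 0.85, with only 27 counts in all blood EC-like cells of the 5 mice. Dcn was higher by 9.48 ± 0.27 (adjusted p = 1.52e-05), and its levels of 18.6, 26.2, 24.4, 54.7 and 28.6 CPM in EC-like cells of mice 1, 2, 5, 6/7 and 8 were far below those of ASC-like cells of the same mice. Macrophage-like cells held 21.6 and 49.8 CPM of Dcn in mice 1 and 5, within the range of the EC-like cells. The source of these reads was not tested in either class.

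The other small leucine-rich genes differed less. Aspn was higher in ASC-like cells by 7.41 ± 1.16, Fmod by 6.82 ± 1.31 (adjusted p = 0.00674), Bgn by 6.76 ± 0.70 and Podn by 6.45 ± 0.63 on the log2 scale. No mouse of either class overlapped the other class for any of these 4 genes except Fmod, where EC-like cells of mouse 5 stood at 14.8 CPM and ASC-like cells of mouse 2 at 10.6 CPM.

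Hspg2 and Prelp had the highest mean levels of the 10 genes in blood EC-like cells, and Bgn came next, at 3.1 to 155 CPM. Prelp stood at 198, 171, 183, 118 and 171 CPM in EC-like cells of mice 1, 2, 5, 6/7 and 8, the smallest spread of the 10 genes there relative to the mean, and was higher in ASC-like cells by 2.54 ± 0.51 (adjusted p = 0.00798). Hspg2 stood at 1987, 569, 608, 382 and 645 CPM in EC-like cells of these mice, and at 2738, 529, 504.5, 312 and 1440.5 CPM in their ASC-like cells. These ranges overlapped, EC-like cells being higher in 3 of 5 mice, and the difference of 0.36 ± 0.30 (adjusted p = 0.435) did not pass the test. Per kilobase, Hspg2 (59.1 CPM) and Prelp (46.5 CPM) were the 2 highest of the 10 genes in EC-like cells, followed by Bgn (23.5 CPM). Blood EC-like cells fell into 2 clusters, and 171 of the 178 cells of the smaller one were those of mouse 1, the mouse with the highest Hspg2.

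Of 89 related genes tested, which comprised other proteoglycan cores, enzymes of glycosaminoglycan synthesis, proteases and binding partners, 44 were called higher in ASC-like cells and 11 lower, with a median log2 fold change of 2.37 against 0.20 over all genes tested. Epyc, a further small leucine-rich proteoglycan, had 0 counts in EC-like cells and 9595 in ASC-like cells, at least 923-fold higher over a floor of 3 counts in the summed EC-like cells. Chst13, a chondroitin sulfotransferase, was also at 0 in EC-like cells, and its counts summed over mice were at least 214-fold higher over that floor. Its ASC-like levels were low and uneven, from 0 to 9.32 CPM between mice on the scale of the test. Fbn1 (fibrillin-1) was higher by 10.09, and the glypicans Gpc6 and Gpc3, heparan sulfate proteoglycans of the cell surface, by 9.71 and 9.68 on the log2 scale.

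Among the fibrillar collagens and other partners that small leucine-rich proteoglycans bind, 10 of 11 were called higher and 1 lower. Higher in EC-like cells were Lama5, a laminin chain of vessel basement membranes (log2 difference, ASC-like minus EC-like, -8.72), Srgn, the granule proteoglycan serglycin (-5.55), Adamts9, a protease that cuts versican (-5.22), Prg4 (-3.34) and the syndecan Sdc3 (-3.19).

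Lymphatic EC-like cells stood apart from blood EC-like cells for Prelp. They held 5744, 4728, 2874 and 7507 CPM of Prelp in mice 1, 5, 6/7 and 8, against 118 to 198 CPM in blood EC-like cells. Every mouse with such cells lay above every blood EC-like and every ASC-like level of Prelp. These levels rest on 9, 4, 3 and 6 cells, under the minimum of 10 cells for a sum, and were not tested. All 5 lymphatic markers, Prox1 and Lyve1 among them, were detected in these cells. Bgn stood at 493, 563, 3.7 and 822 CPM in the same cells, and Vcan and Fmod were at 0 counts in all 4 mice.

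Mural cells, the pericytes and smooth muscle cells around vessels, share the reporter with ASC. At least 10 mural-like cells were found in mouse 1 (82 cells) and mouse 2 (13 cells) alone. Of those of mouse 1, 76 came from plate 172, sorted as reporter-positive. All 13 of mouse 2 came from plate 874, which was sorted as reporter-negative and CD31-positive. Pecam1, which encodes CD31, stood at 372 and 961 CPM in mural-like cells of mice 1 and 2. Their blood EC-like cells held 1356 and 1931 CPM. The part of the sort in the mural-like levels was not tested. Aspn stood at 368 and 450 CPM in mural-like cells of mice 1 and 2, above the 121 and 48.1 CPM of their ASC-like cells. Bgn stood at 1405 and 1022 CPM, below the 3923 and 1863 CPM of ASC-like cells, and Hspg2 at 1754 and 416 CPM, against 2738 and 529 CPM.

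Dcn, by contrast, stood at 103 CPM in mural-like cells of mouse 1 and at 0.62 CPM, from 6 counts, in those of mouse 2. Plate 172, with most mural-like cells of mouse 1, also held 242 ASC-like cells. The ASC-like cells of mouse 2 lay on plates 709 and 875, apart from its mural-like cells on plate 874. Lum, Podn, Vcan and Fmod stood at no more than 22.9 CPM in both mice, and Lum, Vcan and Fmod had 0 counts in mouse 2. Of the ASC markers, Pdgfra stood at 20.9 CPM in mural-like cells of mouse 1 and at 0 in those of mouse 2, and Col1a1 at 463 and 220.1 CPM. All 7 ASC markers had a read in at least 25% of pericyte-like and of VSMC-like cells and summed to 3321 and 1253 CPM there, against 28385 CPM in ASC-like cells. In blood EC-like cells 5 of these 7 markers had a read in at least 25% of cells, and the sum was 2485 CPM. The part of ASC RNA in the mural-like levels of mouse 1 was not tested.

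With 2 mice, no gene of 9701 (0%) was called between ASC-like and mural-like cells by the quasi-likelihood test with the mouse as a block, whereas 1373 genes, 8 of the 10 among them, passed 0.05 before adjustment. With the likelihood ratio test of edgeR, calls numbered 1018 genes (10.5%), 7 of the 10 included, and with DESeq2 1387 genes, 8 of the 10 included. Aspn differed by -2.33 ± 0.59 on the log2 scale, ASC-like minus mural-like (adjusted p = 0.204 in the quasi-likelihood test), and was the only one of the 10 with a negative value. Dcn differed by 10.74 ± 3.12 (adjusted p = 0.253), Lum by 10.62 ± 2.90, Ogn by 6.24 ± 2.97, Podn by 7.76 ± 1.36 and Vcan by 8.46 ± 1.41. The values were 5.23 ± 1.20 for Fmod, 2.17 ± 0.45 for Prelp, 1.26 ± 0.41 for Bgn and 0.58 ± 0.40 for Hspg2. None of the 83 related genes tested was called.

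Between mural-like and blood EC-like cells of the same 2 mice, 5 of the 10 genes had enough counts for the test. Bgn was called higher in mural-like cells, by 4.70 ± 0.45 on the log2 scale (adjusted p = 0.0221), where 0.919% of 7287 genes were called higher and 0.0686% lower. Its levels were 1405 and 1022 CPM in mural-like cells and 70.9 and 35.4 CPM in EC-like cells of mice 1 and 2. Aspn differed by 7.53 ± 1.01 (adjusted p = 0.054), Hspg2 by -0.20 ± 0.39 (adjusted p = 0.914), Prelp by 0.43 ± 0.69 and Dcn by -1.09 ± 3.19. Of the mural-like cells, 57.4% were rich in markers of another class, and no fit without them is given here. Their part in these differences was not tested. Lum, Fmod, Ogn, Podn and Vcan had too few counts. Of 53 related genes, 6 were called higher, and 5 of these were Cspg4, the pericyte proteoglycan NG2 (6.69), and the collagen genes Col6a2 (6.04), Col1a1 (6.02), Col6a1 (6.0) and Col1a2 (5.75).

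Pericyte-like and VSMC-like cells could be set side by side in mouse 1 alone, with no replicate. Ogn stood at 68.2 CPM in pericyte-like and 1113 CPM in VSMC-like cells, and Fmod at 1.8 and 46.0 CPM. Aspn (391 and 343 CPM) and Bgn (1362 and 1453 CPM) differed little. The high level of Ogn in VSMC-like cells has no replicate. The VSMC-like cells of mice 4 and 8 held 26.0 and 2.3 CPM, but at 1 and 2 cells they are too few to show whether other mice share it.

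Shares of cells with a read did not follow these levels for every gene. To set classes of unequal depth side by side, each cell was thinned to 150000 reads, and intervals are exact binomial (95%) and cover counting error only. Of 2249 ASC-like cells, 100% held a read of Dcn, 99.6% of Bgn, 99.4% of Lum, 98.9% of Ogn, 96.2% of Hspg2 and 94.4% of Prelp. Podn was read in 78.7% (76.9% to 80.3%), Vcan in 64.1% (62.1% to 66.1%), Aspn in 34.9% (33.0% to 37.0%) and Fmod in 21.1% (19.4% to 22.9%).

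Among 558 blood EC-like cells, Hspg2 was read in 80.8%, Dcn in 38.2% and Prelp in 37.6%, and Vcan in 2.33%. Dcn was also read in 51.1% of 137 macrophage-like cells, which came from mice 1 and 5 alone. The source of these reads was not tested. Prelp was read in 13.9% of macrophage-like cells (8.56% to 20.8%), below its share in EC-like cells (33.6% to 41.8%). Without thinning, Prelp was read in 57.8% of EC-like and 41.6% of macrophage-like cells.

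Aspn was read in 86.7% of pericyte-like cells (75.4% to 94.1%) and 90.2% of VSMC-like cells (76.9% to 97.3%), and Prelp in 95.5% of lymphatic EC-like cells. Of the 10 genes, an ASC-like cell held a median of 8 (quartiles 7 and 9), a VSMC-like cell 6, a pericyte-like cell 5, a lymphatic EC-like cell 3 and a blood EC-like cell 2.

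**Figure D2:**
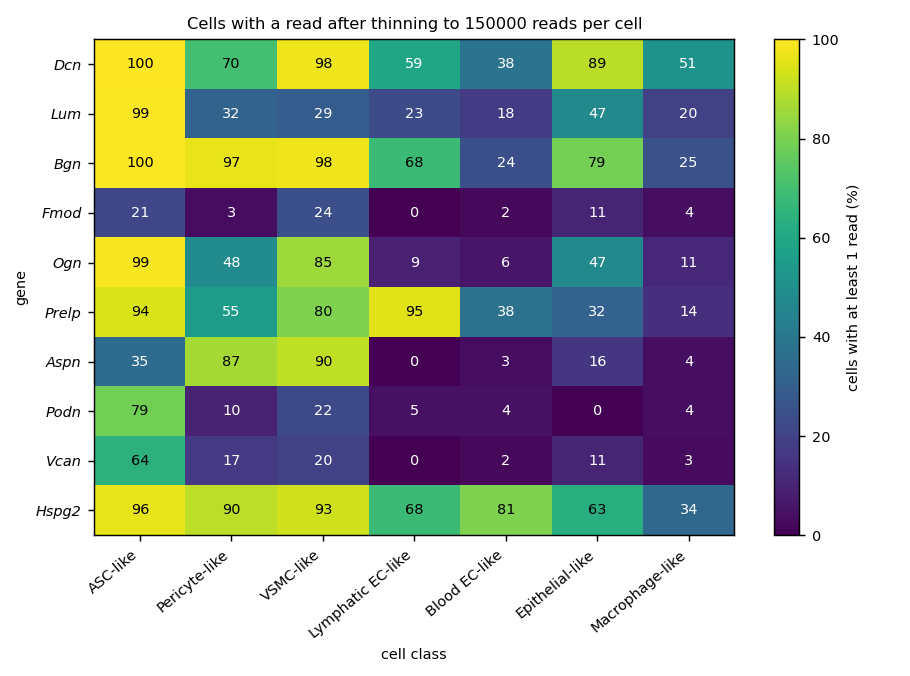
Percent of cells with at least 1 read of each gene (rows) in each cell class (columns), after every cell was thinned to 150000 reads; the number in a field is the percent and the colour repeats it. Dcn was read in 100% of ASC-like cells, and Aspn in a larger share of pericyte-like (86.7%) and VSMC-like cells (90.2%) than of ASC-like cells (34.9%).

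Within ASC-like cells some genes were spread evenly and others sat in few cells. The 10% of cells with the highest level held 20.1% of all Dcn (median over 7 mice, range 18.6% to 23.9%). The highest 10% held 44.5% of Podn, 44.2% of Vcan, 74.2% of Aspn and 99.3% of Fmod (range 82.7% to 100%). After thinning to 150000 reads, 21.1% of ASC-like cells held a read of Fmod and 7.51% held at least 10, against 34.9% and 16.6% for Aspn. Without thinning 34.0% held a read of Fmod and 51.7% one of Aspn.

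Across the ASC-like cells of a mouse, Spearman correlations between pairs of the 10 genes were weak and are given as a description. The neighbours Dcn and Lum had the highest median of all 45 pairs, 0.30 (range 0.10 to 0.42 over 7 mice), followed by Lum with Bgn (0.28), Dcn with Ogn (0.23) and Prelp with Podn (0.22). The neighbours Ogn and Aspn stood at 0.10 (range -0.23 to 0.40) and Fmod and Prelp at 0.08 (range 0.03 to 0.16). The lowest medians were those of Vcan with Dcn and with Podn, both at -0.16 and below 0 in 7 of 7 mice. Cells of a mouse share plates and differ in depth, which enters all these values.

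The subtypes ASC1a, ASC1b and ASC2 were set by scores of markers that are none of the 10 genes, which gave 812, 669 and 770 cells, and 479 of 2251 cells (21.3%) lay near a boundary between subtypes. Markers were scaled within each mouse, so a label is relative to the other cells of that mouse. Mouse 1 gave 87, 67 and 90 cells of the subtypes, and mouse 4 gave 125, 119 and 119. In the paper's own clusters, mouse 1 had no cells in the male ASC1a cluster and mouse 4 almost none in the male ASC2 cluster. Results over all 7 mice below include such mice. ASC2 are the cells marked by Dpp4 and Pi16, and ASC1 the others. All 10 genes were read in all 3 subtypes. Between ASC2-like and ASC1a-like cells of 7 mice, none of the 10 passed both the adjusted p and the fold limit, where 3.3% of 11150 genes did. By the adjusted p alone, 2 were higher in ASC2-like cells (4.86% of all genes) and 4 lower (4.54% of all genes).

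Lower in ASC2-like than in ASC1a-like cells were Podn (log2 fold change -0.99 ± 0.17), Prelp (-0.88 ± 0.14, adjusted p = 0.000499), Hspg2 (-0.80 ± 0.11, adjusted p = 8.52e-05) and Dcn (-0.38 ± 0.10), each in 7 of 7 mice. Podn stood at 146, 410 and 780 CPM (lowest, median and highest mouse) in ASC1a-like cells and at 68.2, 263 and 579 CPM in ASC2-like cells. These ranges overlapped between mice, and the difference was one within each mouse. Higher in ASC2-like cells were Aspn (1.34 ± 0.34, adjusted p = 0.0171) and Vcan (0.58 ± 0.17, adjusted p = 0.0421), each in 6 of 7 mice. Aspn stood at 23.4, 28.6 and 154 CPM in ASC1a-like and at 53.9, 137 and 291 CPM in ASC2-like cells, and male mouse 8 was the mouse in which it was not higher. Fmod (-1.02 ± 0.66), Bgn (-0.56 ± 0.22), Lum (-0.29 ± 0.10) and Ogn (0.10 ± 0.11) did not pass.

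Between ASC1b-like and ASC1a-like cells none of the 10 was called (0.341% of all genes were), and by the adjusted p alone Hspg2 was lower (-0.74 ± 0.11, adjusted p = 0.00192), in 7 of 7 mice. By that rule 0.637% of all genes were higher and 0.448% lower. Lum and Fmod were higher in ASC1b-like cells in 7 of 7 mice, with log2 fold changes of 0.42 ± 0.10 (adjusted p = 0.0577) and 1.58 ± 0.61 (adjusted p = 0.288) that did not pass. Nor did Aspn (0.84 ± 0.34), Bgn (0.41 ± 0.21), Dcn (0.26 ± 0.10), Ogn (0.19 ± 0.11), Podn (0.17 ± 0.17), Vcan (-0.22 ± 0.17) or Prelp (-0.22 ± 0.14). Hspg2 had its highest level in ASC1a-like cells, at 432 to 3592 CPM, in each of the 7 mice.

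Between ASC2-like and ASC1b-like cells 1 of the 10 was called. Fmod was lower in ASC2-like cells (-2.60 ± 0.67, adjusted p = 0.0211), where 2.9% of all genes were called. It stood at 18.0, 245 and 1023 CPM in ASC1b-like and at 0.19, 81.4 and 230 CPM in ASC2-like cells, and was lower in 7 of 7 mice. This call was lost without mouse 1, mouse 2 or mouse 6/7. By the adjusted p alone 6 of the 10 were lower in ASC2-like cells (4.29% of all genes), namely Dcn (-0.65 ± 0.10), Podn (-1.17 ± 0.17), Bgn (-0.97 ± 0.22), Lum (-0.71 ± 0.10), Prelp (-0.66 ± 0.14) and Fmod. Each of these was lower in 7 of 7 mice except Bgn, which was lower in 6. Vcan was higher (0.79 ± 0.17, adjusted p = 0.00668; 3.6% of all genes), in 7 of 7 mice, and Aspn (0.50 ± 0.33), Ogn (-0.09 ± 0.11) and Hspg2 (-0.06 ± 0.11) did not pass. These comparisons share the sums of each subtype and are not independent of each other.

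**Figure D3:**
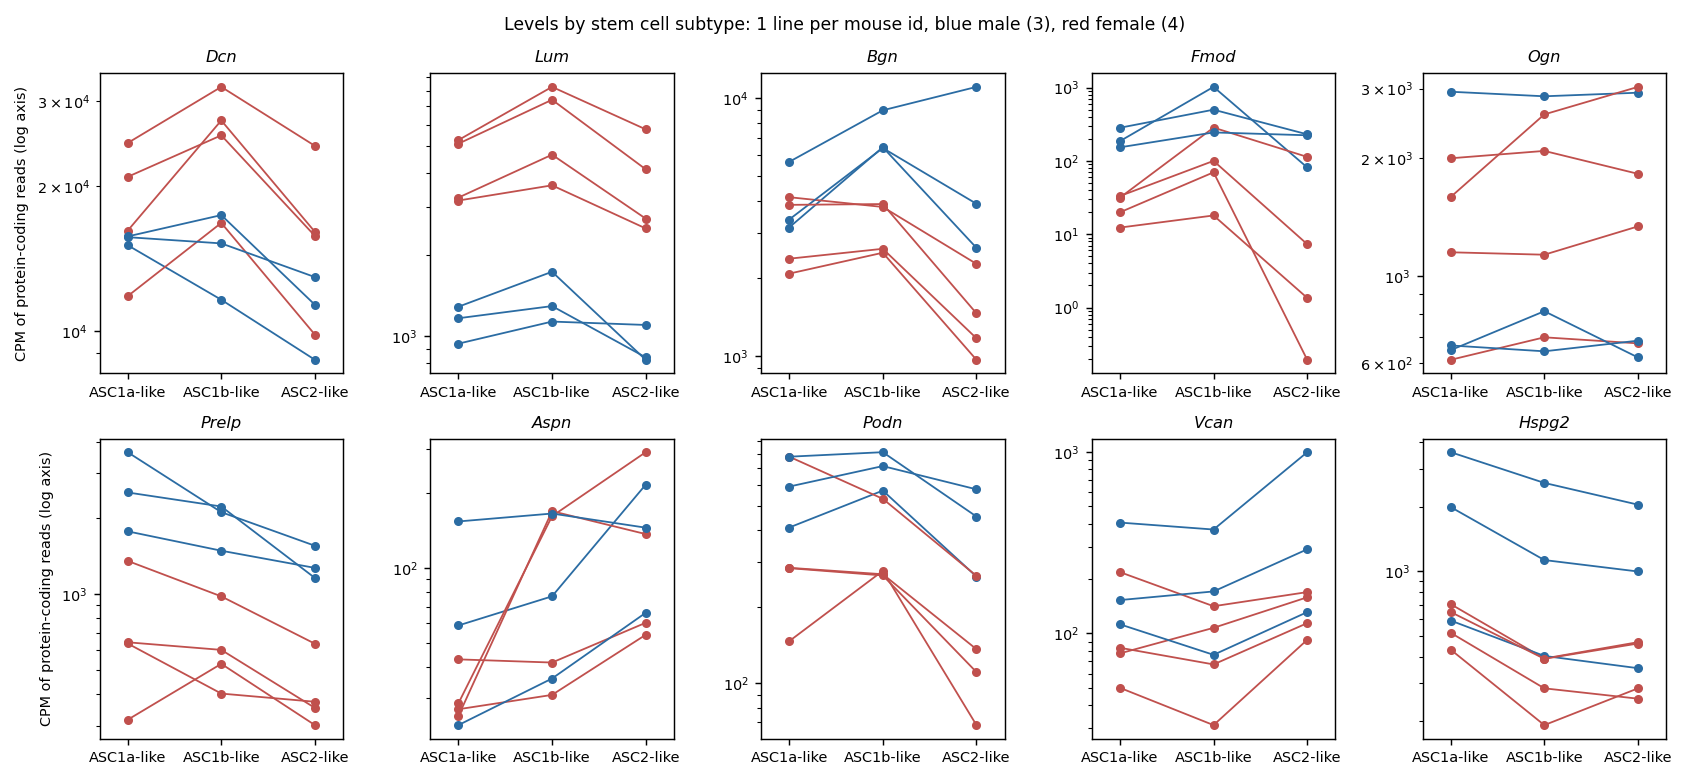
Levels in CPM of protein-coding reads (log axis) of the 10 genes in ASC1a-like, ASC1b-like and ASC2-like cells, 1 line per mouse id, blue for 3 male and red for 4 female ids. Hspg2 falls from ASC1a-like to ASC1b-like cells and Podn, Prelp and Dcn are lower in ASC2-like than in ASC1a-like cells in 7 of 7 mice.

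Of 82 related genes tested, over all 9 lists, 7 were called higher and 3 lower in ASC2-like than in ASC1a-like cells, where 3.3% of all genes were called in either direction, with a median of 0.02 against -0.02 over all genes. Among the enzymes that make the chains, 1 was higher and 2 lower of 12 for chondroitin and dermatan sulfate, 1 was higher of 3 for keratan sulfate, and none was called of 12 for heparan sulfate or of 6 for the linkage region. Chst1, a keratan sulfate sulfotransferase (4.65), Chst7, a chondroitin sulfotransferase (3.29), Fbn1 (2.17) and the small leucine-rich genes Omd (1.75) and Tsku (1.61) were higher on the log2 scale. Csgalnact1, which starts chondroitin chains (-2.19), Chst15 (-1.69) and the basement membrane gene Nid2 (-1.41) were lower. Between ASC2-like and ASC1b-like cells 5 were higher, Chst1 (4.25), Chst7 (3.50), Fbn1 (2.004), Hpse, which encodes heparanase (1.65), and Ext1, a heparan sulfate polymerase (1.58), and Csgalnact1 was lower (-1.58). None was called between ASC1b-like and ASC1a-like cells.

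In female mouse 2, DPP4-positive and DPP4-negative cells had been sorted onto separate plates, which gave 379 and 368 ASC-like cells. Dpp4 itself stood at 318 and 2.54 CPM. Fmod stood at 2.3 CPM in the positive and 17.8 CPM in the negative cells, 7.76-fold higher in the latter. Dcn (16631 and 24234 CPM), Lum (2719 and 4217 CPM), Bgn (1316 and 2340 CPM) and Podn (191 and 267 CPM) were lower in the positive cells, and Vcan (133 and 94.7 CPM) was higher. Prelp (464 and 490 CPM), Aspn (47.0 and 49.1 CPM), Hspg2 (543 and 516 CPM) and Ogn (1304 and 1121 CPM) differed by at most 1.16-fold. By marker score, Prelp and Hspg2 had been lower and Aspn higher in ASC2-like than in ASC1a-like cells, whereas by sort these genes differed little. The DPP4-negative sort does not divide ASC1a from ASC1b. With 1 plate per sort in 1 animal there was no test, and the median share of ribosomal RNA reads was 32.7% and 21.03% on the 2 plates.

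Male and female ASC-like cells were compared over 3 and 4 mouse ids, on CPM scaled with TMM factors (trimmed mean of M values, which align the bulk of genes between sums).  Prelp was called higher in males, where 1.55% of 11822 genes were called higher, and Lum was called lower in males, where 0.685% were called lower. On this scale every male mouse lay above every female for Bgn, Fmod and Prelp (7.87% of all genes did so) and below every female for Lum (8.35% of all genes). The median log2 fold change of the 10, male minus female, was 1.41, against 0.04 over all genes.

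Prelp stood at 983, 832 and 1738 CPM in male mice 1, 4 and 8 and at 231, 494, 167 and 236 CPM in female mice 2, 3, 5 and 6/7. The means were 1184 ± 486 (SD, n = 3) and 282 ± 145 (SD, n = 4), and the log2 fold change was 2.07 ± 0.43 (SE, adjusted p = 0.0393 in edgeR). The groups did not overlap. Prelp remained called without mouse 1 or 3 and missed the call without any one of mice 2, 4, 5, 6/7 and 8.

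Lum stood at 549, 721 and 709 CPM in male mice 1, 4 and 8 and at 1700, 1519, 2418 and 2806 CPM in female mice 2, 3, 5 and 6/7. The means were 660 ± 95.9 (SD, n = 3) and 2111 ± 605 (SD, n = 4), and the log2 fold change was -1.68 ± 0.34 (adjusted p = 0.0372 in edgeR). The groups did not overlap, with females 3.20-fold higher. Lum remained called without mouse 3 and missed the call, at adjusted p of 0.0668 to 0.123, without any other single mouse.

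Fmod stood at 198, 191 and 136 CPM in male mice 1, 4 and 8 and at 5.12, 13.6, 60.5 and 19.2 CPM in female mice 2, 3, 5 and 6/7. The groups did not overlap, and the log2 fold change of 2.83 ± 0.66 (adjusted p = 0.0557) was just short of the threshold. Bgn stood at 1988, 2554 and 5599 CPM in males and at 900, 1682, 1343 and 902 CPM in females (1.49 ± 0.43, adjusted p = 0.111). Hspg2 stood at 1387, 248 and 976 CPM in males and at 255, 178, 224 and 139 CPM in females (2.13 ± 0.50, adjusted p = 0.0558), and here male mouse 4 lay within the females.

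Podn (1.33 ± 0.46), Vcan (1.72 ± 0.52) and Aspn (0.65 ± 0.55) overlapped between the sexes and did not pass. Dcn, the highest of the 10 genes, differed by -0.19 ± 0.38 (adjusted p = 0.812), the male mean being 8043 ± 2068 CPM and the female mean 9183 ± 2352 CPM. Ogn differed by 0.11 ± 0.54 (adjusted p = 0.926), with male mouse 1 the highest of all mice at 1478 CPM.

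The share of ribosomal RNA reads differed between mice of both sexes. Its median was 53.4%, 24.9% and 46.7% in ASC-like cells of male mice 1, 4 and 8 and 26.8%, 24.3%, 46.2% and 30.7% in those of female mice 2, 3, 5 and 6/7. Since no male overlapped any female for Lum, Prelp, Fmod or Bgn over all 7 mice, dividing the mice by this share could not change that and is no separate check of these genes. Hspg2 overlapped among the 4 mice with the lower share (248 CPM in male mouse 4 against 139 to 255 CPM in females 2, 3 and 6/7) and not among the 3 with the higher share (976 and 1387 CPM in males 8 and 1 against 224 CPM in female 5). The part of this share in the differences was not tested.

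Markers of blood EC summed to 16.9 to 32.4 CPM in male and 6.0 to 43.9 CPM in female ASC-like cells, those of mesothelium to 0.05 to 154 and 0.75 to 324 CPM, and those of VSMC to 44.3 to 372 and 33.5 to 382 CPM, so these sums overlapped between the sexes. The 7 ASC markers themselves summed to 28596 to 82046 CPM in males and 15498 to 27697 CPM in females, which did not overlap, and their part was not tested. Some ASC-like clusters followed the mouse, with 295 of 319 cells of one from male mouse 4 and 89 of 100 cells of another from male mouse 1. In the paper's clusters, mouse 1 had no cells in the male ASC1a cluster and mouse 4 almost none in the male ASC2 one. Of female mouse 2, 379 ASC-like cells came from a plate sorted as DPP4-positive. Subtype mix therefore differed between mice and cannot be told apart from mouse. Subtype labels here are relative to the other cells of a mouse, also in the fits within a subtype. How far this mix enters the sex differences was not tested.

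**Figure D4:**
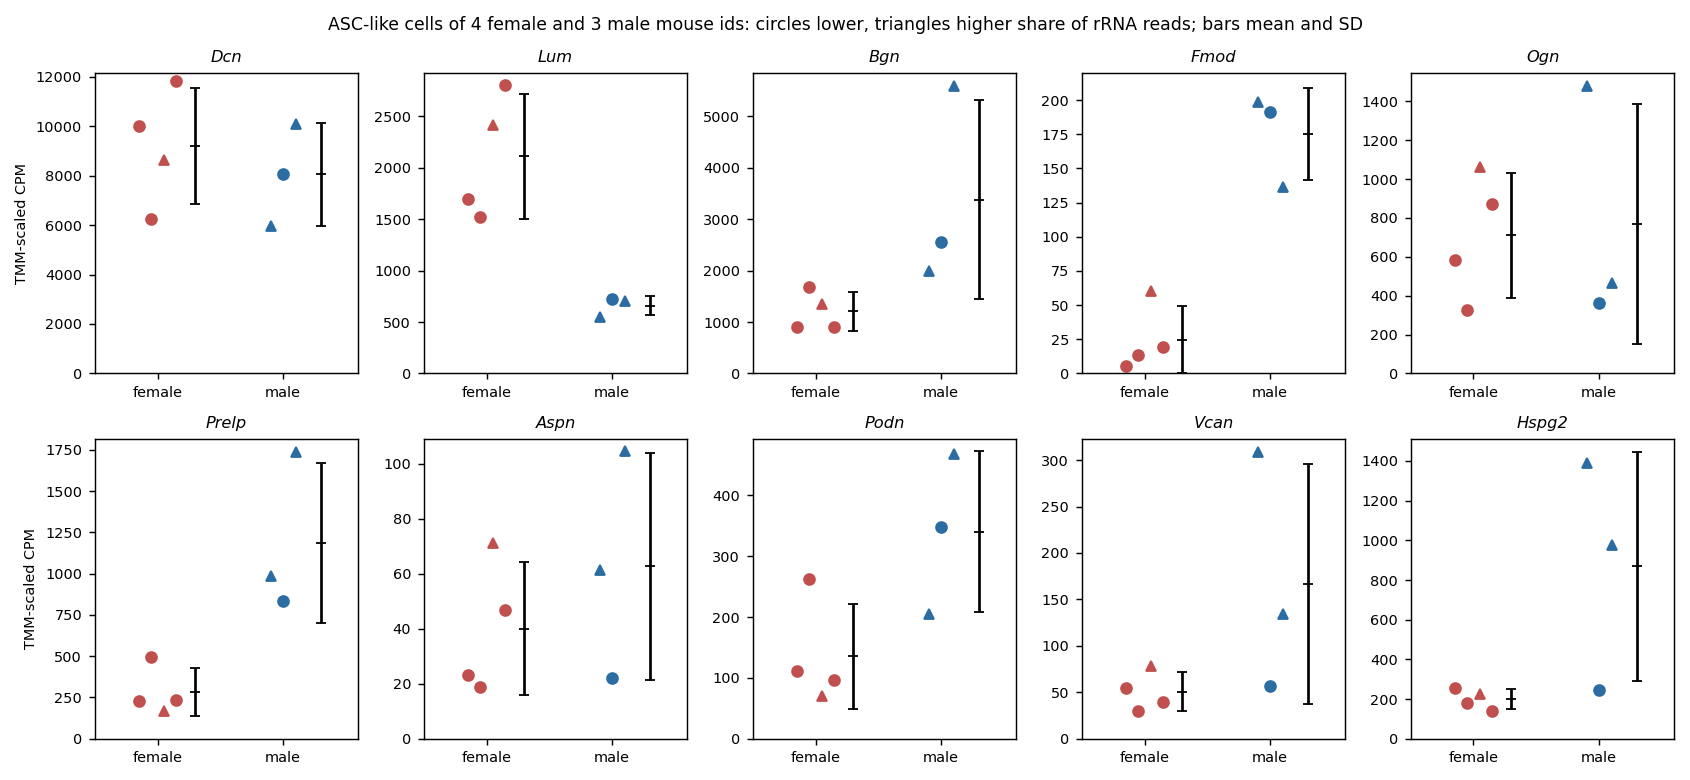
TMM-scaled CPM of the 10 genes in ASC-like cells of 4 female and 3 male mouse ids, with triangles for mice with a higher share of ribosomal RNA reads and bars for mean and SD. The sexes do not overlap for Lum (females higher) or for Bgn, Fmod and Prelp (males higher), and overlap for the other 6 genes.

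The scale also entered. With library totals in place of TMM factors the median of all genes moved from 0.038 to -0.60 on the log2 scale, the split of calls went from 183 higher and 81 lower to 88 higher and 223 lower, and Prelp was no longer called (1.29, adjusted p = 0.150) while Lum (-2.25, adjusted p = 0.0193) and Fmod (2.39, adjusted p = 0.0224) were. Fmod was also called without mouse 5, and Hspg2 without mouse 4. With totals of protein-coding reads the median moved to -0.25, 89 genes were higher and 85 lower, Prelp stood at 1.76 (adjusted p = 0.0511) and Lum at -1.995 (adjusted p = 0.0258). Bgn, Fmod, Prelp and Hspg2 stayed above 0 and Lum below 0 under each of these scales, whereas Ogn and Aspn changed sign.

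In blood EC-like cells, 4 of the 10 genes could be tested between 2 male and 3 female ids, and none was called (0.0493% of 8116 genes were called, and 612 had an unadjusted p below 0.05). Bgn differed by 2.81 ± 0.92 (adjusted p = 0.647), Hspg2 by 1.48 ± 0.51, Prelp by 0.44 ± 0.43 and Dcn by -0.31 ± 0.75. Lum, Fmod, Ogn, Aspn, Podn and Vcan had too few counts. The sex difference of Prelp was larger in ASC-like than in EC-like cells by 2.22 ± 0.49 on the log2 scale (adjusted p = 0.774 in edgeR), which did not pass, nor did any of 12207 genes (0%), of which 770 passed 0.05 before adjustment. Between ASC subtypes the sex difference passed for 13 genes (0.117% of 11150) and for none of the 10, the lowest adjusted p being that of Bgn (0.216).

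Of 88 related genes tested between the sexes in ASC-like cells, 6 were called higher in males and 1 lower, where 1.55% of all genes were higher and 0.685% lower. Their median log2 fold change was 0.54, against 0.04 over all genes. Higher were Prg4, which encodes lubricin (3.50), the proteases Adamts15 (2.3) and Adamts5 (1.64), which cut large proteoglycans, and Col18a1 (1.80) and Col4a2 (1.67), collagens of basement membranes. Chst11, a chondroitin sulfotransferase, was lower (-4.93). The largest of these values rest on low levels. Chst11 stood at 0.015 to 0.37 CPM in males and 1.17 to 10.4 CPM in females, and Prg4 at 6.41 to 12.8 and 0.30 to 1.81 CPM (TMM-scaled).

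For the 5 genes with the highest level per kilobase, the 3 genes most like each in log2 CPM over the 21 sums of mouse and subtype were listed, among 11149 genes and by Pearson's r, as a description without a test. For Lum these were Emb (0.95), Adk (0.94) and Plscr4 (0.90), and for Prelp they were Amotl2 (0.95), Col18a1 (0.95) and Pdk2 (0.94). For Bgn they were the collagen genes Col1a2 (0.93) and Col1a1 (0.92), and Fkbp9 (0.90). For Ogn they were Mtpn (0.95), P4hb (0.94) and Cd164 (0.93), and for Dcn, with lower values, Hspa8 (0.75), Gm12328 (0.75) and Ntan1 (0.75). The 3 sums of a mouse share its library preparation, so that the 21 sums are not independent.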

How the data were processed

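Single cells of the pgWAT stromal vascular fraction were sequenced with Smart-seq2 (3261 cells, 11 plates, 7 mouse ids). The authors used bcl2fastq, STAR, Salmon and the mm10 build (submitters' processing notes; versions are not given in the sources used here) and deposited raw counts, whole numbers for each gene in each cell; 0 columns lacked a labelled plate, and 0 cell names were shared. ERCC spike-in rows (1.98% of reads) were left out. Cells were clustered in Seurat 5.3.0 without the 10 genes (3000 variable genes, 14 principal components, resolution 1.1), which gave 18 clusters, and named from markers, at least 3 of them in at least 25% of cells. With the 10 genes kept, 3258 cells had the same class. No doublet caller was run, since the authors' methods describe removal of mixed cells before deposit; 1.24% of ASC-like, 15.5% of blood EC-like and 57.4% of mural-like cells were rich in markers of another class. Subtypes were the highest of 3 marker scores, as z-scores within each mouse.

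Counts were summed per mouse and class (at least 10 cells). The filter kept genes whose sum exceeded 600 counts in 2 or more sums, and the test was that of edgeR 4.0.16 (quasi-likelihood, two-sided, TMM, Benjamini-Hochberg over all genes tested), with the mouse as a block between classes and subtypes because the sums of a number come from the same mouse. The study's likelihood ratio test, DESeq2 1.42.0, other scalings and filters, other cell choices and leaving out each mouse were alternatives; totals of protein-coding reads were added after seeing the data. The tests were tested on simulated data. Software was R 4.3.3 and, under Python 3.11.15, pandas 2.3.3, numpy 2.4.6, matplotlib 3.10.9 and scipy 1.17.1. The rule named all 10 genes, up to 5 called related genes per direction of 126 in 9 lists, and the most alike genes for 5 of the 10. The genes and lists were chosen with earlier results of these data known. Principal transcripts came from GENCODE vM21.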

Additional observations from a re-analysis of the deposited data

Results flagged for a closer look

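Of 40 groups of 4 female ids tested (each gene in all ASC-like cells and in the 3 subtypes), 2 held a mouse that lay farther from the others than Dixon's 95% critical value of 0.829 allows, where chance flags about 1 in 20 groups. Podn in ASC1b-like cells of female mouse 3 stood at 531.7 CPM, against 265 to 277 CPM in the other 3 female ids. Fmod in ASC2-like cells of female mouse 5 stood at 113.4 CPM, against 0.19, 1.35 and 7.31 CPM in the other 3. Mouse 5 was the female id with the high share of ribosomal RNA reads (46.2%) and the fewest ASC-like cells (104), and mouse 3 had the lowest share (24.3%), and the part of either was not tested.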

How the results depend on the processing

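Counts below are of the 10 genes called. The call of 9 higher in ASC-like than in blood EC-like cells held under all 15 alternatives. ASC-like against mural-like cells went from 0 to 7 with the likelihood ratio test and 8 with DESeq2. Mural-like against EC-like cells went from 1 to 2 with the likelihood ratio test, DESeq2, library totals or protein-coding totals, and to 0 with a filter of at least 10 counts or with no replicate block. ASC2-like against ASC1a-like cells went from 0 to 1 (Aspn) with protein-coding totals, with z-scores over all ASC-like cells and without cells near a boundary, and to 0 to 1 with a mouse left out (1 without mouse 2, 3 or 8). ASC2-like against ASC1b-like cells went from 1 to 0 with at least 10 counts or no replicate block, and to 0 to 1 with a mouse left out. Male against female ASC-like cells went from 2 to 6 with the likelihood ratio test or DESeq2, to 3 (Fmod added) with the class of each cell taken from its own markers or without cells rich in markers of another class, to 1 with protein-coding totals, ASC1b-like cells only or ASC2-like cells only, to 0 with at least 10 counts, and to 0 to 3 with a mouse left out (0 without mouse 2, 6/7 or 8, and 3 without mouse 3). The cause was not tested.

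Log2 values that changed sign were all uncalled. Between mural-like and EC-like cells Dcn stood at 1.44 with no replicate block. Between ASC2-like and ASC1a-like cells Ogn stood at -0.0095 without mouse 5 (-0.0095 to 0.16 with a mouse left out). Between ASC2-like and ASC1b-like cells Hspg2 stood at 0.026 with protein-coding totals, 0.028 without mouse 1 (-0.16 to 0.028 with a mouse left out), 0.017 with z-scores over all cells and 0.034 without cells near a boundary. Between the sexes in ASC-like cells Ogn stood at -0.65 with library totals, -0.13 with protein-coding totals, -0.78 without mouse 1, -0.12 without mouse 3 (-0.78 to 0.46 with a mouse left out) and -0.046 in ASC2-like cells only, Aspn at -0.15 with library totals and Dcn at 0.092 in ASC1a-like cells only. In EC-like cells Dcn stood at 0.083 without mouse 1 (-0.84 to 0.083 with a mouse left out) and Prelp at -0.31 with library totals.

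Over all genes, calls between ASC-like and mural-like cells went from 0 to 1018 (likelihood ratio test), 1387 (DESeq2) or 78 (library totals), and between mural-like and EC-like cells from 72 to 306, 514 or 264, to 130 (protein-coding totals) or 21 (at least 10 counts); with library totals the split there was 191 higher and 73 lower, against 67 and 5. The likelihood ratio test and DESeq2 called 92 and 117 genes between ASC1b-like and ASC1a-like cells (38 in the main test, 4 with no replicate block) and 551 and 599 between the sexes in ASC-like cells (264 in the main test). There, 174 were called with protein-coding totals or with at least 10 counts, 119, 109 and 58 within subtypes and 92 to 345 with a mouse left out. In EC-like cells 4 were called between the sexes, and 0 to 619 with a mouse left out (619 without mouse 1). No replicate block left 185 genes for ASC2-like against ASC1a-like and 108 for ASC2-like against ASC1b-like cells, against 368 and 323. Leaving out a mouse could not be fitted for the mural-like comparisons, since 1 mouse would be left. Depth per class limits the mural-like and lymphatic EC-like levels, which rest on few cells of few mice, and reads without molecular identifiers are not independent molecules.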
